A study of Mus musculus with 6 samples.

Results

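Ribosomal protein genes were examined for captured methylated DNA in mouse lung as a set of expressed housekeeping genes. The set held the autosomal protein-coding genes whose symbol was Rpl or Rps followed by a number and at most 1 letter, without the copies whose symbol ends in l. It had 68 members of 20665 autosomal protein-coding genes in mm10, 40 for proteins of the large ribosomal subunit and 28 for proteins of the small subunit. The other 20597 genes were the reference in each library. Peaks of each library's own list were counted within 500 bp of either gene end and in the gene span, the stretch between the annotated ends.

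The data came from MBD-seq of lung genomic DNA, in which a protein domain that binds methylated CpGs pulls out DNA fragments for sequencing. The libraries were 3 from transgenic mice and 3 from wild-type mice, all aged 12 to 16 months and called biological replicates by the study. The transgenic genotype was given as SPC-DNMTdelta3B/DG for replicates 1 and 3 and as SPC-DNMTdeltaB/DG for replicate 2. The mice carried ΔDNMT3B4-del, a splice variant of the de novo DNA methyltransferase DNMT3B, behind the SPC promoter. That promoter belongs to surfactant protein C and is active in alveolar type 2 cells, which are only some of the cells in a lung. Founder line and sex were not given for these animals. In DNA of whole lung, more methylated copies in a few cells and a little more methylation in all cells cannot be told apart. The peak lists hold no expression values, so the labelled tissue could not be checked against expressed markers.

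Ribosomal proteins assemble with ribosomal RNA into the small subunit, which reads the mRNA, and the large subunit, which forms peptide bonds. Their genes are transcribed in nearly all cells, and their promoters are typically short, rich in CpG and unmethylated. Many of them are compact genes that carry small nucleolar RNAs (snoRNAs) in their introns, and processed pseudogenes copied from their mRNAs are scattered over the genome.

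Annotated starts and strand were found for 49 of the 68 members. Their windows of 250 bases before to 50 bases after the start held a median of 21 CpGs, from 8 in Rpl22 and Rpl6 to 35 in Rpl9, against a median of 14 in 16408 other genes. The median ratio of observed to expected CpGs was 0.903 in the members and 0.595 in the others. With a ratio of at least 0.6 and a GC content of at least 50% taken as CpG-rich, 38 members (77.6%) and 7739 other genes (47.2%) were CpG-rich. The 250 bases before the start are printed for 4 members that mark the range of what was found, 5′ to 3′ on the plus strand from RefSeq's GRCm38.p6, with every CpG in capitals. Rps2 (chr17:24719813-24720062, 29 CpGs) had a peak downstream of this stretch in all 6 libraries, Rpl12 (chr2:32961462-32961711, 15 CpGs) had one that ran across its start in all 6, Rpl10a (chr17:28328221-28328470, 14 CpGs) had one downstream in the transgenic lists alone, and Rps19 (chr7:24884342-24884591, 16 CpGs) had none. These 4 were chosen after their values were seen.
Rps2: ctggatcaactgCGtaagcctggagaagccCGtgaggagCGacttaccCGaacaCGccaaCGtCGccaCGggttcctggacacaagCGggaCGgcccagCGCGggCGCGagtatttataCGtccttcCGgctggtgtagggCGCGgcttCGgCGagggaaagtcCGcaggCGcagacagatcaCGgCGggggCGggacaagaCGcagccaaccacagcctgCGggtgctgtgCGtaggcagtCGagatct
Rpl12: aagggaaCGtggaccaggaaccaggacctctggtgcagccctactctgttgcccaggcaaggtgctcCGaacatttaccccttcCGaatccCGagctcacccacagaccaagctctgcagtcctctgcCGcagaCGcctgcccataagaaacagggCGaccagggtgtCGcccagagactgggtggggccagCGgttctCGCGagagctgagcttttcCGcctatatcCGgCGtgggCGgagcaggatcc
Rpl10a: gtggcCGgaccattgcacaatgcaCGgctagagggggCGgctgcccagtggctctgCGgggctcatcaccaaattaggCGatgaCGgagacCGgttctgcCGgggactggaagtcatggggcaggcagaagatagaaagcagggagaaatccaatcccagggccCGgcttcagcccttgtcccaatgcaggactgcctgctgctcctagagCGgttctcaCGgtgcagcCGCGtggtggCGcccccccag
Rps19: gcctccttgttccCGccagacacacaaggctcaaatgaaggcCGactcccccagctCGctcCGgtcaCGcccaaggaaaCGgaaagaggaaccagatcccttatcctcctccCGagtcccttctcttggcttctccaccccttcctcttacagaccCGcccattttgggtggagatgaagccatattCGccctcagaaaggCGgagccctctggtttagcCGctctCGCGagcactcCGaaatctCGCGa
No peak of any list lay wholly within the bases printed for these 4 genes, and only that of Rpl12 reached into them, over the bases next to the start.

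Library values are given throughout for transgenic replicates 1, 2 and 3 and then wild-type replicates 1, 2 and 3. The lists held 120349, 116352 and 78952 peaks in the transgenic libraries and 60131, 111211 and 30640 in the wild-type libraries. The wild-type list of replicate 2 was thus of the length of the transgenic lists, and those of replicates 1 and 3 were shorter. Read depth is unknown, and the length of a list stands in for it only in part.

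Peaks near the ends of ribosomal protein genes were more frequent than at other genes in the 3 transgenic libraries and in wild-type replicate 2. In the 2 shortest lists the shares were close, with members slightly lower in wild-type replicate 1 and slightly higher in wild-type replicate 3. In the transgenic libraries 28, 24 and 21 members had a peak at an end, which is 41.2%, 35.3% and 30.9%, against 18.4%, 16.3% and 11.1% of the other genes. In the wild-type libraries 5, 21 and 3 members had one, which is 7.35%, 30.9% and 4.41%, against 7.65%, 16.1% and 3.03% of the others. The members' 95% exact binomial intervals, which cover counting error only, ran from 29.4 to 53.8%, 24.1 to 47.8% and 20.2 to 43.3% in the transgenic libraries. They ran from 2.43 to 16.3%, 20.2 to 43.3% and 0.919 to 12.4% in the wild-type libraries. The share of other genes lay below the members' interval in transgenic replicates 1, 2 and 3 and in wild-type replicate 2, and inside it in wild-type replicates 1 and 3.

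Between genotypes, the members' share at gene ends averaged 35.8% ± 5.16 (SD, n = 3) in transgenic and 14.2% ± 14.5 (SD, n = 3) in wild-type lungs. The groups overlapped, because transgenic replicate 3 and wild-type replicate 2 both had 21 members with an end peak. The wild-type SD was as large as the wild-type mean, and the order of the 6 libraries in this share followed the order of their list lengths apart from transgenic replicate 3 and wild-type replicate 2, which were equal. With the 30640 highest-scoring peaks of each list, 5, 4 and 7 members had an end peak in the transgenic and 3, 4 and 3 in the wild-type libraries. The members' mean excess over other genes then fell from 12.9 to 2.04 percentage points.

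**Figure D1:**
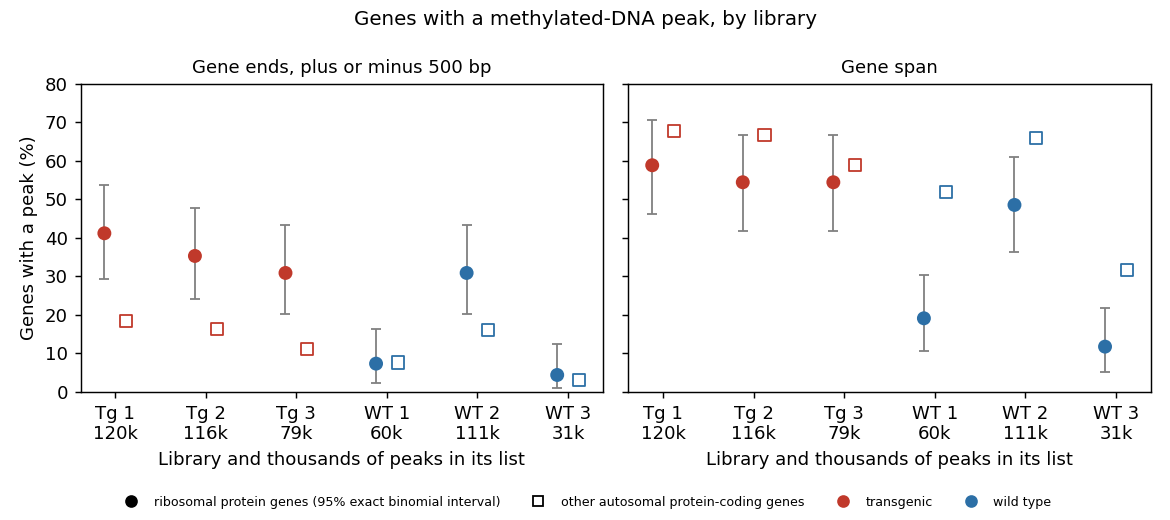
Share of genes with a peak (%) at gene ends plus or minus 500 bp (left) and in the gene span (right) in each library, with list length (k, 1000 peaks) below; filled circles are the 68 ribosomal protein genes with 95% exact binomial intervals, and open squares are the 20597 other genes. At gene ends the members lie above the squares in the transgenic libraries and wild-type replicate 2, and in the span they lie below the squares in every library.

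Over whole spans the order was the other way: fewer ribosomal protein genes than other genes held a peak in each library. The transgenic libraries had a span peak in 40, 37 and 37 members (58.8%, 54.4% and 54.4%), against 67.7%, 66.7% and 58.8% of other genes. The wild-type libraries had one in 13, 33 and 8 members (19.1%, 48.5% and 11.8%), against 51.9%, 65.9% and 31.7%. Members are short, with spans of 982 to 11774 bp and a median of 3169.5 bp, whereas the median span of the other genes was 17628 bp. Against the 8095 other genes no longer than the longest member, of which 42.3%, 40.4% and 32.5% had a span peak in the transgenic and 26.1%, 40.6% and 12.2% in the wild-type libraries, the members were higher in the transgenic libraries and wild-type replicate 2 and lower in wild-type replicates 1 and 3. The group means were 55.9% ± 2.55 (SD, n = 3) in transgenic and 26.5% ± 19.5 (SD, n = 3) in wild-type lungs, and the groups did not overlap.

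Counted per length, ribosomal protein genes were denser in peaks than other genes in all 6 libraries. There were 271, 194 and 178 peaks per Mb of member span in the transgenic libraries and 60.6, 178 and 32.3 in the wild-type libraries. The other genes had 62.2, 59.0 and 38.5, and 28.5, 55.9 and 13.0 per Mb, so the members were 4.35, 3.29 and 4.62 times as dense in the transgenic and 2.12, 3.18 and 2.49 times as dense in the wild-type libraries. Short genes as a class were also dense: other genes no longer than the longest member had 128, 121 and 85.5 peaks per Mb in the transgenic and 64.3, 121 and 29.1 in the wild-type libraries. Against these, members were higher in the transgenic libraries and in wild-type replicates 2 and 3, and slightly lower in wild-type replicate 1.

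In covered sequence the distance from other short genes was small. Peaks covered 9.06%, 5.74% and 4.78% of the summed member span in the transgenic libraries and 1.78%, 5.89% and 0.461% in the wild-type libraries. The same share was 3.22%, 2.65% and 1.66%, and 1.21%, 2.69% and 0.288%, for all other genes. For other genes no longer than the longest member it was 7.35%, 5.90% and 3.93%, and 2.79%, 6.38% and 0.639%. Members thus exceeded all other genes in each library, but exceeded other short genes only in transgenic replicates 1 and 3. Covered sequence averaged 6.53% ± 2.25 (SD, n = 3) in transgenic and 2.71% ± 2.83 (SD, n = 3) in wild-type lungs, and the groups overlapped, since wild-type replicate 2 lay above transgenic replicates 2 and 3.

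Around the start, peaks covered the members most inside the gene. Strand was known for 49 members. In these, peaks covered none of the bases from 1000 to 250 bp before the start in any of the 6 libraries. Other genes were also low there, with bin means of 0.74 to 1.03% in transgenic and 0.39 to 0.54% in wild-type lungs. At shares so low, empty bins in 49 members do not set them apart. From -2000 to -1751 bp the members had 2.32% in transgenic and 2.48% in wild-type lungs, against 1.92% and 1.08% in other genes. From -1750 to -1001 bp the members' means were below those of other genes in each bin. In the transgenic libraries the bin from 250 to 499 bp after the start was the most covered, at 26.1%, 12.9% and 14.8% of its bases, where the wild-type libraries had 2.0%, 10.6% and 1.13%. In wild-type lungs the mean was highest from 1000 to 1249 bp, at 6.02%, with 6.16%, 11% and 0.898% in the single libraries, and the transgenic mean there was 11.9%. In the bin from 250 to 499 bp the means were 17.9% in transgenic and 4.57% in wild-type lungs, against 3.17% and 1.71% in other genes and 1.32% and 0.65% in other genes with a CpG-rich start. Wild-type replicate 2 lay close below transgenic replicate 2 in this bin, and wild-type replicates 1 and 3 lay well below both. Past the other end, the members' mean coverage fell from 2.50% in transgenic and 0.61% in wild-type lungs in the first 250 bp to 0.00% in both from 500 to 1499 bp, where other genes stood at 2.0 to 2.18% in transgenic and 1.06 to 1.23% in wild-type lungs. Farther out the members were not steadily lower. They had 4.71% and 2.55% from 1750 to 1999 bp, against 2.18% and 1.26% in other genes. From 2250 to 2499 bp they had 0.87% and 0.26%, against 2.22% and 1.16%.

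Counted by gene, the first 500 bp after the start held a peak in 18, 11 and 13 of the 49 members in the transgenic libraries and in 3, 11 and 2 in the wild-type libraries. These are 36.7%, 22.4% and 26.5%, and 6.12%, 22.4% and 4.08%. Other genes stood at 6.28%, 5.37% and 3.85%, and 2.62%, 5.20% and 1.12%, and other genes with a CpG-rich start at 2.97%, 2.2% and 1.91%, and 1.07%, 2.17% and 0.594%. In every library the members' share was higher than both. Over all libraries 20 members (40.8%) had a peak there in at least 1 list, against 7.61% of other genes and 3.37% of those with a CpG-rich start. The 250 bp before the start were reached in 5 members (10.2%), Rpl12, Rpl15, Rpl31, Rps12 and Rps28, in at least 1 list. This compares with 4.54% of other genes and 2.29% of those with a CpG-rich start. In each of the 5 members the peak region ran across the start.

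**Figure D2:**
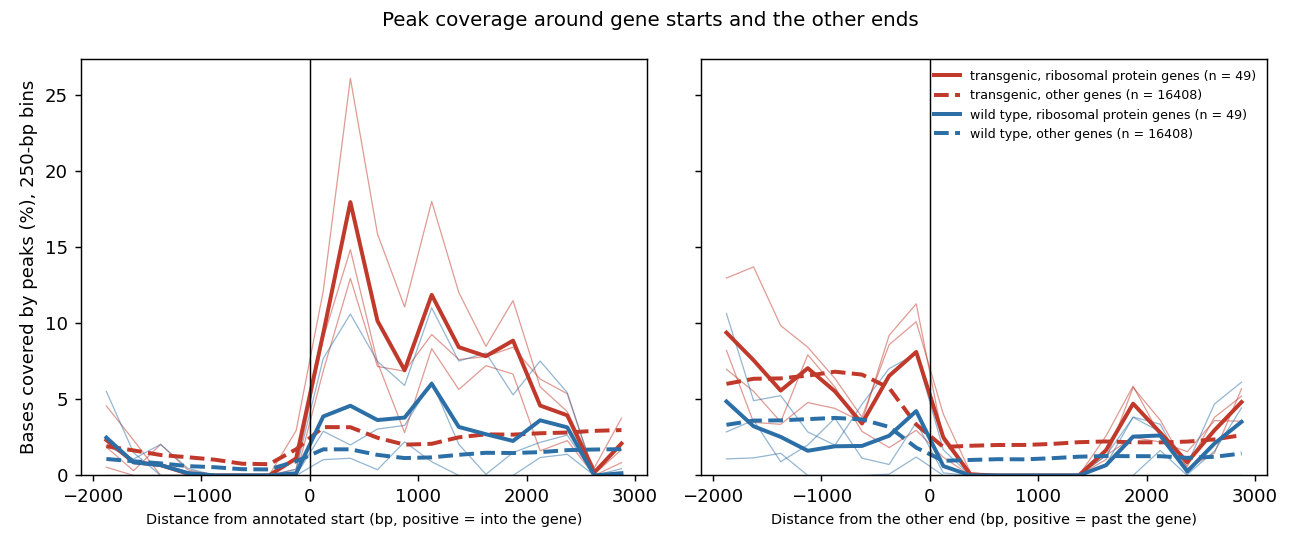
Mean percent of bases covered by peaks in 250-bp bins around the annotated start (left) and the other gene end (right), for 49 ribosomal protein genes (solid lines, thin lines for single libraries) and 16408 other genes (dashed lines), by genotype. The members are highest at 17.9% in the bin from 250 to 499 bp after the start in transgenic lungs and at 6.02% from 1000 to 1249 bp in wild-type lungs, and are at 0.00% in the bins between 1000 and 250 bp before it.

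When overlapping peaks of the 6 lists were merged, 49 members held 82 regions of 162 to 1093 bp with a median width of 339.5 bp. Of these, 70 lay inside the span, 10 ran across a gene end and 2, at Rps29 and Rps14, lay outside the span within 500 bp of an end. Among the 63 regions of members with a known strand, 58 lay wholly downstream of the start, 5 ran across it and 0 lay wholly upstream. Their midpoints were a median of 1104 bp downstream, from -59 to 6165 bp. Regions were sought only in the span and within 500 bp of its ends, so most of the searched sequence lay downstream of the start. The split and the midpoints are thus largely set by the search and do not show a preference for either side. A snoRNA gene was overlapped by 9 regions and another protein-coding gene by 3. Of the 25 members that hold an annotated snoRNA gene 16 had a span peak in at least 1 list, and of the 43 without one 32 had.

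The regions differed in how many libraries carried them. Only 4 regions were present in all 6 lists, in Rps2, Rps10, Rpl12 and Rpl31, and 23 were present in 1 list. Counted by gene, 5 members (7.35%) had a peak in the span or at an end in all 6 libraries, against 28.7% of other genes, and 19 members (27.9%) had none in any library, against 26.6%. These shares are not adjusted for gene length, and most other genes are longer. Among other genes no longer than the longest member, 30.9% had a peak in all 3 transgenic lists, against 47.1% of members. In all 3 wild-type lists 812 of these 8095 genes had one, against 5 of 68 members. Rpl35a was the fifth member with a peak in all 6 libraries, through 2 regions with peaks in 4 lists each. Rpl12 was the only member whose ends had a peak within 500 bp in all 6.

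Among small subunit members, Rps2, whose protein lines the entry of the mRNA channel, held the highest-scoring region, at chr17:24720217-24720818, which lies 154 to 755 bp downstream of its annotated start and overlaps the snoRNA gene Snora64. The authors' peak scores there were 396, 129 and 133 in the transgenic and 61.7, 147 and 118 in the wild-type libraries. Scores come from the authors' peak caller, start at 50 in every list and are not scaled between libraries, so they rank peaks within a list and show no change between lists. Peaks covered 14.3%, 7.49% and 9.59% of the Rps2 span in the transgenic libraries and 13.5%, 10.8% and 3.62% in the wild-type libraries. The groups overlapped, with wild-type replicate 1 above transgenic replicates 2 and 3. The annotated start of Rps2 lies 1942 bp inside its span, so this region was counted in the span and not at an end.

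Rps10, whose protein sits near the mRNA entry and is among those mutated in Diamond-Blackfan anaemia, had its region in all 6 lists at chr17:27633928-27634565, 679 to 1316 bp downstream of the start. Its scores were 289, 63.3 and 130 in the transgenic and 73.2, 189 and 113 in the wild-type libraries. Span coverage was 16.5%, 9.73% and 5.88% in transgenic and 8.07%, 11% and 2.28% in wild-type lungs. These values overlapped as well, wild-type replicates 1 and 2 exceeding transgenic replicate 3.

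Rps12, another protein of the small subunit, had a region across its start at chr10:23786677-23787286, from -77 to 532 bp, in every list but that of wild-type replicate 3. Scores were 375, 266 and 120 in transgenic libraries and 76.4 and 236 in wild-type replicates 1 and 2. Span coverage was 36.6%, 15.6% and 16.0% in transgenic lungs and 15.4%, 15.6% and 0% in wild-type lungs. Transgenic replicate 1 stood apart from the other 5 libraries, and transgenic replicate 2 equalled wild-type replicate 2.

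Rps15, whose protein lies at the subunit's decoding side, had a region of 855 bp across its far end at chr10:80293532-80294386 that also overlapped the long non-coding RNA gene Gm30682. Peaks covered 33.1%, 34.6% and 20.4% of the Rps15 span in transgenic lungs and 0%, 31.1% and 0% in wild-type lungs. Wild-type replicate 2 again stood with the transgenic libraries, and replicates 1 and 3 had no peak. At Rps28 a region at chr17:33823047-33823508 was listed in the transgenic libraries and in wild-type replicates 1 and 2, with scores of 221, 84.8 and 115, and 57.1 and 156. Rps6, Rps7 and Rps16 also had a span peak in 5 lists.

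Among large subunit members, Rpl12, whose protein forms the base of the stalk that recruits translation factors, had a region of 239 bp across its start in all 6 lists, at chr2:32961688-32961926, from -24 to 214 bp. Its scores were 165, 166 and 170 in transgenic and 87.1, 103 and 87.0 in wild-type libraries, nearly level within each group. This was the region that reached into the printed bases of Rpl12. Rpl31, whose protein lies near the exit of the peptide tunnel, had a region in all 6 lists at chr1:39369917-39370278, 2066 to 2427 bp downstream of its start, with scores of 134, 80.2 and 57.9 in transgenic and 80.4, 119 and 70.2 in wild-type libraries. Rpl31 held 4 regions in all, of which 1 ran across its start.

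Rpl19, whose protein takes part in a bridge between the subunits, had a region at chr11:98028266-98028641 with scores of 371, 216 and 134 in transgenic libraries and 121 in wild-type replicate 2. Wild-type replicates 1 and 3 had no peak there.

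**Figure D3:**
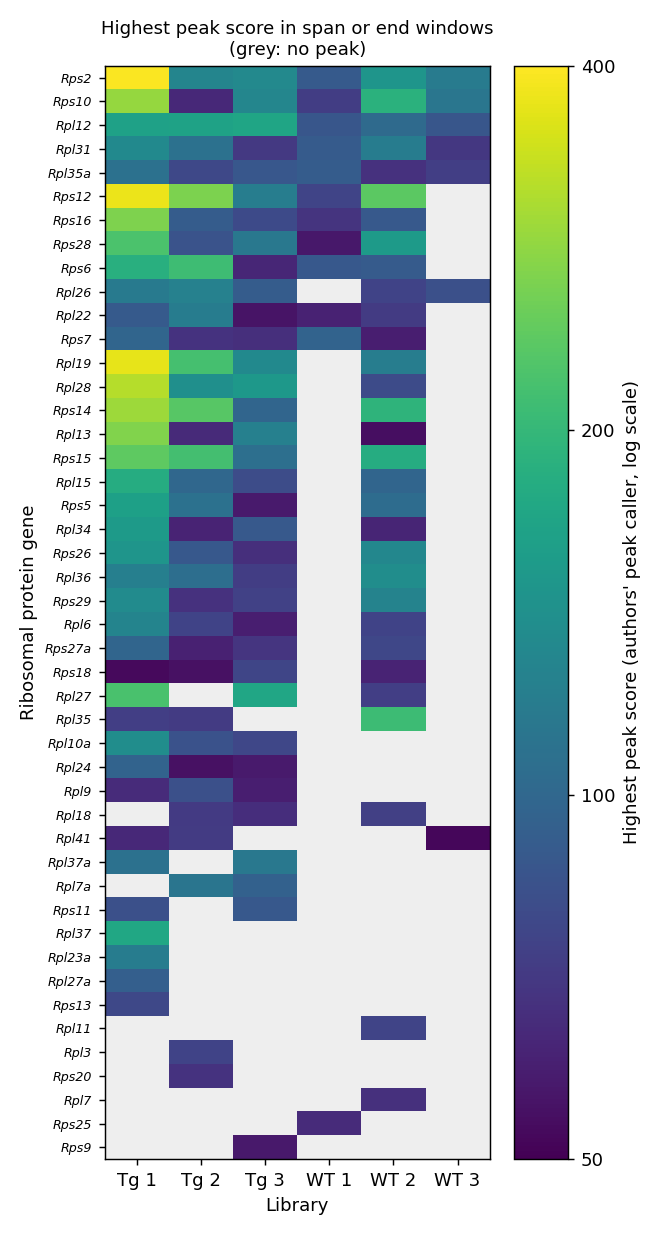
Highest peak score (authors' peak caller, log colour scale that starts at 50) in the span or at the ends of ribosomal protein genes with a peak, by library, with grey for no peak; genes are ordered by the number of libraries and then by score. The wild-type columns of replicates 1 and 3 are mostly grey, and that of replicate 2 resembles the transgenic columns.

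Within the lists, peaks in members were not the strongest. Their median score was 100, 83.7 and 77.4 in the transgenic and 80.4, 84.1 and 82.7 in the wild-type libraries, over 67, 48 and 44 and over 15, 44 and 8 peaks. Peaks in other genes had medians of 116, 94.7 and 84.6, and 71.2, 95.7 and 68.5. The members' median was thus lower than that of other genes in the transgenic libraries and wild-type replicate 2, and higher in wild-type replicates 1 and 3, where few peaks were counted. Member peaks were also narrower, with median widths of 317, 282 and 257 bp in transgenic and 273, 328.5 and 137 bp in wild-type libraries, against 451, 388 and 372 bp and 365, 417 and 193 bp in other genes.

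Genotypes were compared gene by gene on the covered percent of the span, with a two-sided exact permutation test over the 6 libraries that cannot go below p = 0.10 with 3 against 3. The transgenic libraries all lay above the wild-type libraries in 8 members (11.8%), Rpl28, Rpl31, Rps26, Rpl13, Rpl12, Rpl10a, Rpl9 and Rpl24, each at that smallest p of 0.10. Among all 20665 genes this held for 1059, which is 5.12%. Wild type lay above transgenic in 0 members, against 2 of all genes (0.00968%). After Benjamini-Hochberg adjustment over all genes the smallest p was 0.885, so no single gene passed. The transgenic mean was higher in 45 members (66.2%) and in 67.8% of all genes, equal in 20 members and lower in 3, so the share of members with a higher transgenic mean was near that of all genes. The median difference was 3.87 percentage points over the members and 0.82 over all genes. Covered percent is relative to the span, and the median span was 3169.5 bp in members and 17628 bp in other genes. These medians are thus not comparable as sizes of a genotype difference, and no median is given for short genes alone.

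Of these 8 genes 7 encode large subunit proteins and 1, Rps26, a small subunit protein. At Rpl28 peaks covered 45.5%, 43.9% and 24.3% of the span in transgenic lungs and 0%, 21.6% and 0% in wild-type lungs, means of 37.9% ± 11.8 and 7.20% ± 12.5 (SD, n = 3 each). Transgenic replicate 3 was only slightly above wild-type replicate 2. At Rps26, whose protein lies at the mRNA exit, coverage was 27.1%, 25.5% and 19.9% in transgenic and 0%, 14.0% and 0% in wild-type lungs. At Rpl31 it was 25.8%, 23.9% and 16.5% in transgenic and 15.9%, 11.1% and 3.28% in wild-type lungs, so that the lowest transgenic and the highest wild-type value nearly met. Rpl12 was alike in this, with 16.3%, 15.4% and 8.65% in transgenic and 8.48%, 7.71% and 5.44% in wild-type lungs. Rpl13, with its region over the snoRNA gene Snord68, had 14.6%, 15.9% and 13.6% in transgenic and 0%, 11% and 0% in wild-type lungs.

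In 3 of the 8 no wild-type list had any peak, in the span or at the ends. Rpl10a, whose protein forms the mobile stalk at the tRNA exit, had 13.0%, 12.3% and 12.2% of its span covered in transgenic lungs through 1 region at chr17:28328809-28329140, 338 to 669 bp downstream of its start, with scores of 138, 84.4 and 77.8. Rpl24 had 6.53%, 5.77% and 5.98% covered through a region at chr16:55966374-55966710, with scores of 96.8, 54.9 and 58.0. Rpl9 had 8.80%, 10.2% and 8.34% through a region at chr5:65389373-65389686, with scores of 64.4, 82.9 and 59.5. The 3 genes were named after their values were seen. A peak in all 3 transgenic lists and no wild-type list was found in these 3 members (4.41%) and in 107 of the other genes (0.519%), and the opposite pattern in 0 members and 1 other gene. Several of these scores lay close to the lowest listed score of 50, and a peak just under it would not be in a list.

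The 3 members with a lower transgenic mean, named after their values were seen, were Rpl7, Rpl11 and Rps25, and each rested on 1 wild-type library. Rpl7 and Rpl11 had a peak in wild-type replicate 2 only, covering 14.6% and 6.86% of the span. Rps25 had one in wild-type replicate 1 only, covering 9.28%.

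**Figure D4:**
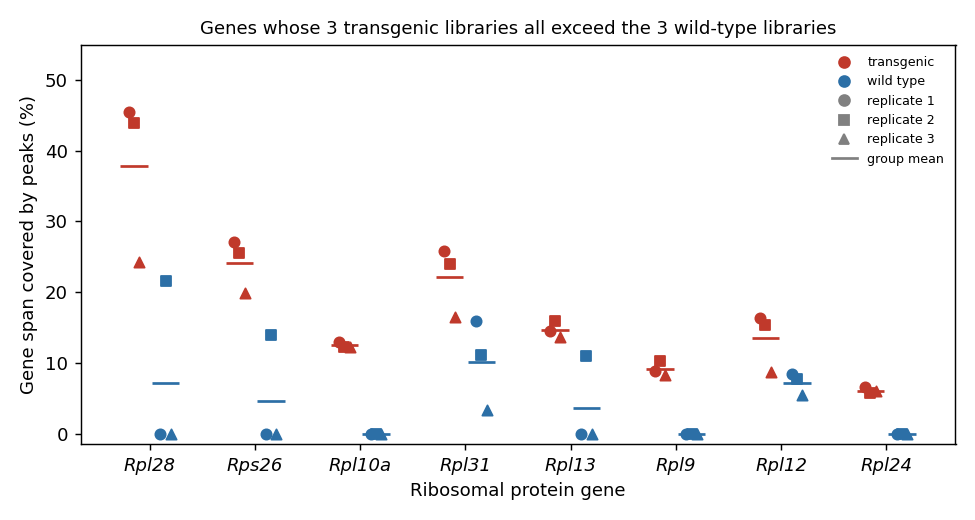
Percent of the gene span covered by peaks in each library for the 8 ribosomal protein genes in which the 3 transgenic libraries (red) all exceed the 3 wild-type libraries (blue), with horizontal lines for group means. In Rpl10a, Rpl9 and Rpl24 the wild-type points are all at 0, and in Rpl31 and Rpl12 the groups nearly touch.

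The count of 8 changed with the libraries and peaks used. Without wild-type replicate 2 it was 27 members (39.7%, against 41.9% of all genes), and without transgenic replicate 3 it was 15 (22.1%, against 26.0%). With the 30640 highest-scoring peaks of each list it was 1 (1.47%, against 4.03%), and with peaks whose score reached the median of all lists, 96.3, it was 3 (4.41%, against 4.05%). Without wild-type replicate 3, with 60131 peaks in each of the other 5 lists, it was also 3 (against 5.88%). In these settings the members' share was near or below that of all genes. Without any 1 of the other 4 libraries the share stayed above it, at 13.2% against 5.69% without transgenic replicate 1, 16.2% against 6.88% without transgenic replicate 2, 11.8% against 6.08% without wild-type replicate 1 and 11.8% against 5.13% without wild-type replicate 3.

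At equal list length the difference between genotypes became smaller, by an amount that depended on the length used. With the 30640 highest-scoring peaks of each list, 8, 5 and 11 members had a span peak in the transgenic and 8, 5 and 8 in the wild-type libraries. With 60131 peaks the counts were 23, 17 and 30 (33.8%, 25.0% and 44.1%) in the transgenic libraries and 13 and 15 (19.1% and 22.1%) in wild-type replicates 1 and 2. At that length the transgenic counts all lay above these 2, with transgenic replicate 2 only 2 genes above wild-type replicate 2. Other genes were nearly level at the same length, at 53.8%, 52.7% and 52.8% in transgenic and 51.9% and 53.1% in wild-type libraries. Shares of so few members carry far more counting error than those of the other genes. At 100000 peaks, which 3 lists reached, transgenic replicates 1 and 2 had 37 and 34 members and wild-type replicate 2 had 32. With 10000 peaks 0 members had a span peak in 5 of the lists and 4 had one in wild-type replicate 3.

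**Figure D5:**
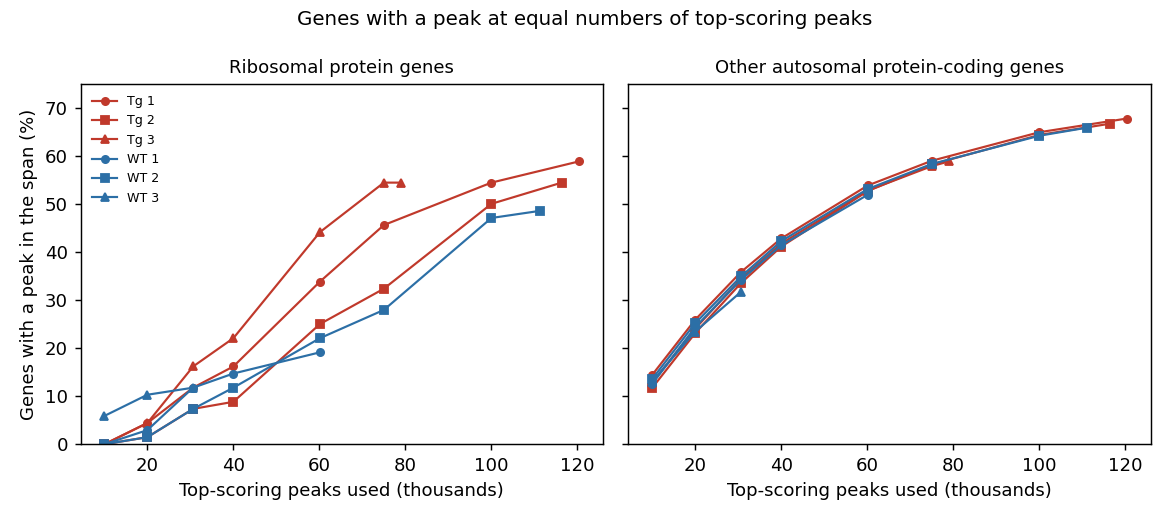
Share of genes with a span peak (%) against the number of highest-scoring peaks used for each library, for the 68 ribosomal protein genes (left) and the 20597 other genes (right). Other genes follow nearly 1 curve in all libraries, whereas the members spread from 19.1% to 44.1% at 60131 peaks among the 5 lists of that length or longer.

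The 19 members without a peak in any library were Rpl4, Rpl5, Rpl8, Rpl13a, Rpl14, Rpl17, Rpl21, Rpl23, Rpl29, Rpl30, Rpl32, Rpl38, Rps3, Rps15a, Rps19, Rps21, Rps23, Rps24 and Rps27. Rps19, which has the CpG-containing upstream stretch printed above and encodes the small subunit protein most often mutated in Diamond-Blackfan anaemia, had its nearest peak 2904 bp from an end. The longest distances were 45544 bp at Rpl30, 18511 bp at Rpl4, 15438 bp at Rps15a and 10744 bp at Rps27. At the other extreme, a peak covered an annotated end of members such as Rpl12, Rpl15, Rpl31, Rpl35, Rps15, Rps16, Rps26 and Rps28. Members lay on most autosomes with 13 on chromosome 7, of which 9 had a span peak in at least 1 list. Over all autosomes 48 of 68 members and 15006 of 20665 genes had one. All members had one on chromosomes 1, 4, 8, 10, 12, 16 and 17, which held 2 to 6 members each. Differences between chromosomes were not tested.

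In the transgenic libraries and wild-type replicate 2, both subunits had end peaks more often than other genes, and the small subunit genes most often. In wild-type replicate 1 the shares were 2.5% of large and 14.3% of small subunit members, against 7.65% of other genes. In wild-type replicate 3 they were 5.0% and 3.57%, against 3.03%. End peaks were found in 15, 13 and 11 of the 28 small subunit members in transgenic and 4, 12 and 1 in wild-type libraries. For the 40 large subunit members the counts were 13, 11 and 10, and 1, 9 and 2. The share was higher in small subunit members in every library except that of wild-type replicate 3, which had 3.57% against 5.0%. In spans the shares of the subunits were closer in the transgenic libraries and wild-type replicate 2, but not in wild-type replicates 1 and 3. The counts were 17, 16 and 17, and 8, 15 and 3 small subunit members and 23, 21 and 20, and 5, 18 and 5 large subunit members. In wild-type replicate 1 these were 28.6% of small and 12.5% of large subunit members.

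Translation factor, ribosome biogenesis and mitochondrial ribosomal protein genes had a lower share with an end peak than the members. The exception was translation factors in wild-type replicate 1 (8.33% against 7.35%), and these differences were not tested. Of 24 translation factors 3, 1 and 1 had an end peak in transgenic and 2, 1 and 0 in wild-type libraries, and of 25 ribosome biogenesis genes 3, 2 and 1, and 0, 4 and 0. Of 78 mitochondrial ribosomal protein genes 15, 13 and 9, and 5, 14 and 3 had one, shares of 11.5 to 19.2% in transgenic and 3.85 to 17.9% in wild-type libraries. The mitochondrial genes Mrps11 and Mrps12 had an end peak in all 6 libraries. Groups did not overlap, with transgenic above, in 1 translation factor (4.17%), 3 biogenesis genes (12%) and 2 mitochondrial genes (2.56%), against 5.12% of all genes, and the reverse held in 0 of each list.

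Of the 9 cytosolic ribosomal protein genes with other names 3, 2 and 1 had an end peak in transgenic and 1, 2 and 2 in wild-type libraries. Their share was above that of the members in wild-type replicate 1 (11.1% against 7.35%) and in wild-type replicate 3 (22.2% against 4.41%). Of the 4 measured tissue-restricted copies 3 had an end peak in each transgenic library, and Rpl10l, an intronless copy used in the testis, had one in all 6 libraries. Of the 4 X-linked genes 0 had an end peak in transgenic replicates 1 and 3 and wild-type replicates 1 and 3, 2 in transgenic replicate 2 and 3 in wild-type replicate 2.

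Ribosomal protein pseudogenes had a peak at an end more often than the members in each library, and in the span in 5 of the 6. Of 270 with a symbol of the family followed by -ps, 172, 160 and 141 had a peak at an end in transgenic and 109, 174 and 56 in wild-type libraries, 52.2 to 63.7% and 20.7 to 64.4%. In the span the shares were 61.5%, 57.8% and 50.7% in transgenic and 38.9%, 63.3% and 20.4% in wild-type libraries. They were close to the members' shares in the transgenic libraries, lower in transgenic replicate 3, and higher in the wild-type libraries. Neither these shares nor those at ends are adjusted for gene length. Of the summed pseudogene span, peaks covered 33.4%, 29.1% and 23.0% in transgenic and 16.9%, 31.9% and 5.33% in wild-type libraries. Members were lower in each library, at 9.06%, 5.74% and 4.78%, and 1.78%, 5.89% and 0.461%. Of the 16 members without a named pseudogene 10 had a span peak in at least 1 list, of the 24 with 1 to 3 named pseudogenes 16, and of the 28 with 4 or more 22. The median number of lists with a span peak was 1, 2.5 and 4 in these 3 classes. Rpl31 had 24 named pseudogenes and a peak in all 6 lists, whereas Rpl21 with 14 and Rps19 with 13 had no peak. Parent genes and pseudogenes share exon sequence, and the sources used here do not say how reads that match both were placed. The part of such reads in the member peaks was not tested.

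No ribosomal protein gene held a region that the study's own test called differential. In the authors' deposited table of 407 regions, 356 of them autosomal, 0 of 68 members overlapped one in the span or within 500 bp of an end, against 156 of all genes (0.755%). With so low a share among all genes, a count of 0 in 68 does not set the members apart. Within 10000 bp the count was also 0, and no share of all genes is given for that distance. The nearest region in the authors' deposited table lay 12069 bp from Rpl18, at chr7:45702844-45703398, where transgenic over wild type was -1.63 on the log2 scale (FDR 0.0218). The next in the authors' deposited table were 73133 bp from Rps7, at a log2 value of -1.58 (FDR 0.0703), and 82119 bp from Rps9, at 0.66 (FDR 0.00957).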

How the data were processed

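MBD-seq peak lists of 3 transgenic and 3 wild-type lungs were used, grouped and numbered by the sample titles. Per the submitters' processing notes, Bowtie, DiffBind and edgeR were used with the build mm10, and no versions are stated. The peak names in the deposited lists are those of MACS, while the sources used here give neither its version and settings nor read depth, duplicate handling or the placement of multiply mapping reads. Each library has its own deposited list, with the authors' score per peak, which starts at 50. The authors' deposited table gives, per the file headers, read concentrations and folds on a log2 scale, with a p-value and FDR per region. The distances in bp in the authors' deposited annotation tables were not used for results.

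Spans of genes were taken from a RefSeq table of mm10 without strand, and start sites, strand and sequences from RefSeq promoter windows (GRCm38.p6), in which 49 of 68 members were matched. Exons and introns were not resolved. A gene had a peak where at least 1 bp was shared, and covered bases were counted once. Overlapping peaks of different lists were merged into regions. Values were compared over libraries by two-sided exact permutation tests with Benjamini-Hochberg adjustment over 20665 genes. The test was checked on simulated data. Intervals are 95% exact binomial intervals. No set test was made. A few genes are counted in the totals but not reported here by name, nor drawn in the plot of scores.

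The members and lists were chosen with earlier results of these data known. Genes named were the up to 30 members with peaks in most libraries and then the highest scores, the 6 nearest to and 4 farthest from a peak, members with a differential region, and listed genes with an end peak in all 6 libraries. Others were named after their values were seen, where the text says so or where groups did not overlap. Alternatives were equal list length, a score minimum, windows of 250, 1000 and 2000 bp, an overlap of 100 bp, single gene ends, spans without their ends, a replicate block and leaving out each library. Short genes as background and 5 lists of equal length were added after seeing the data. Python 3.11.15, numpy 2.4.6, pandas 2.3.3 and scipy 1.17.1 were used.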

Additional observations from a re-analysis of the deposited data

How the results depend on the processing

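Differences below are percentage points, as means over libraries. At gene ends, members minus other genes was 12.9 with all peaks, 2.04 at equal list length (the highest-scoring peaks, as many as the shortest list has), 4.97 at or above the pooled median score, 7.34 with a 250 bp window, 7.48 with 5 equal lists without wild-type replicate 3 and 0.608 at the other gene end alone. Transgenic minus wild type was 21.6, against 2.94 at equal list length, 14.2 with the 250 bp window, 11.5 with 5 equal lists and 6.12 at the other end. In the span, members minus other genes was -15.9, and -23.1 at equal list length, -23.3 without the first and last 500 bp and -24.0 with the 5 equal lists. It reversed to 8.82 against other genes no longer than the longest member. Transgenic minus wild type there was 29.4, and 1.47 and 13.7 at the same equal lengths of 6 and 5 lists. For covered sequence, members minus other genes was 2.67, and 0.267 at equal list length, 0.919 with the score minimum, 1.27 with 5 equal lists and 0.123 against the short genes. Transgenic minus wild type was 3.82, and 0.347 and 1.10 at equal lengths of 6 and 5 lists and 2.30 with the score minimum. Leaving out each library in turn gave 10.9 to 15.6 and 16.7 to 29.9 at ends, -18.2 to -12.6 and 22.1 to 40.4 in spans, and 2.03 to 3.17 and 2.55 to 5.41 for covered sequence. The count of members with transgenic libraries all above wild type was 8, and 1 at equal list length, 3 with the score minimum, 3 with 5 equal lists and 8 to 27 leaving out each library. With a replicate block, in which pairs of the same number were compared, it was 14 (20.6%, against 25.9% of all genes), and the differences between groups stayed the same. The numbers were not taken to pair the animals: deviations of same-numbered samples correlated at -0.208, 0.0978 and 0.545, and transgenic replicate 1 correlated best with wild-type replicate 2 (0.520). The count with wild type above was 0 and that of members with a differential region was 0 in every setting run. The cause of these shifts was not tested. Groups of 3 are too small for a check for outlying samples, and a region under a list's lowest score of 50 cannot be told from an unmethylated one.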
